A study of Homo sapiens with 8 samples.

Results

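The genes described are the cullins, the KLHL adaptors and a set of neddylation genes, measured in HSC39 cells that had received small interfering RNA (siRNA) aimed at TRIM44 or a control siRNA. Members were chosen by symbol: every gene whose symbol begins with KLHL or DCUN1D, the 8 cullin genes, and RBX1, NEDD8, NAE1, UBA3, CAND1, CAND2, SPOP and SPOPL. They were 56 genes with 1 probe set each, among 19158 probe sets with exactly 1 gene symbol that stand for 18404 genes. Of the 56, 8 are cullins, 36 are KLHL genes, 5 are DCUN1D genes, 5 are RBX1, NAE1, UBA3, CAND1 and CAND2, and 2 are SPOP and SPOPL. NEDD8 itself and KLHL23 each have 1 probe set that carries several symbols, and they were not analysed here.

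HSC39 is an established human line of gastric signet ring carcinoma, and its RNA was measured on 8 Affymetrix whole-transcript arrays. Of these, 2 were of TRIM44 siRNA 7, 2 of TRIM44 siRNA 9 and 4 of AllStars negative siRNA. The labels give 100 nm (as written there) of TRIM44 siRNA for 48 h. The series counts 4 biological replicates per condition, with both TRIM44 reagents as 1 condition, and nothing else states whether the samples were separate cultures. The p-values therefore cover only how these samples vary, and that variation may be technical. TRIM44, a tripartite motif protein that has no RING domain, checks the labels. It stood at a log2 level of 10.85 and 11.27 with siRNA 7 and 11.10 and 11.14 with siRNA 9, against 11.91, 12.02, 11.91 and 11.77 with negative siRNA. All 4 TRIM44 siRNA arrays lay below all 4 negative arrays, and TRIM44 was lower by 0.81 ± 0.10 on the log2 scale (SE, limma adjusted p = 0.0449).

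Cullins are the scaffolds of the largest family of ubiquitin ligases. One end of a cullin holds a RING protein that recruits the ubiquitin-conjugating enzyme, and the other end holds an adaptor that brings the substrate. CUL3 uses BTB-domain proteins as adaptors, among them the KLHL proteins with their kelch repeats and SPOP with its MATH domain. A cullin is switched on when the ubiquitin-like protein NEDD8 is attached to it by the NAE1 and UBA3 activating enzyme, a conjugating enzyme and a DCUN1D cofactor, and CAND1 exchanges adaptors on cullins that have lost NEDD8. All values here are transcript levels; neither NEDD8 attachment nor ligase activity was measured.

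Values are the deposited log2 expression levels, so a difference of 1 is a doubling. Array medians lay between 6.78 and 6.87. All 10 epithelial markers tested were bright, between 10.23 for GRHL2 and 13.05 for KRT8, and their mean level was 11.52 to 11.62 on TRIM44 siRNA arrays and 11.56 to 11.71 on negative arrays. The 7 fibroblast markers averaged 6.67 to 6.90 on TRIM44 siRNA arrays and 6.72 to 6.86 on negative arrays, with LUM the brightest at 9.77. The 7 markers of leukocytes and endothelium averaged 6.05 to 6.19 on TRIM44 siRNA arrays and 5.99 to 6.27 on negative arrays, with LYZ the brightest at 11.53, and the 8 skeletal muscle markers 6.40 to 6.52 on TRIM44 siRNA arrays and 6.34 to 6.49 on negative arrays. No marker passed the threshold in any comparison. Negative array 2 stood apart in the members: it was the highest of the 4 negative arrays for 25 of 56 members (44.6%), against 27.6% of all probe sets. Values without it are given beside the differences of SPOPL, DCUN1D3, DCUN1D5, RBX1, UBA3, CUL5, KLHL2, KLHL5, KLHL11, KLHL12, KLHL13 and KLHL24. Leaving it out made some differences larger and others smaller in size, among them those of CUL5, KLHL5 and KLHL13. The platform gives no level below which a transcript is absent, and in RNA from whole cultures fewer cells that express a gene and less RNA per cell cannot be told apart.

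SPOPL, KLHL12 and KLHL11 passed the limma threshold with siRNA 9, and DCUN1D3 passed it in no main comparison. The promoters of these 4 members are shown first, to place the genes in the genome. Each window, from RefSeq on build GRCh38.p14, covers 250 bases before and 50 bases after the gene's start. It is written 5′ to 3′ on the gene's strand, and capitals mark matches to the motifs searched. SPOPL lies on the plus strand at chr2:138501520-138501819, DCUN1D3 on the minus strand at chr16:20900309-20900608, KLHL12 on the minus strand at chr1:202928550-202928849 and KLHL11 on the minus strand at chr17:41865374-41865673.
SPOPL: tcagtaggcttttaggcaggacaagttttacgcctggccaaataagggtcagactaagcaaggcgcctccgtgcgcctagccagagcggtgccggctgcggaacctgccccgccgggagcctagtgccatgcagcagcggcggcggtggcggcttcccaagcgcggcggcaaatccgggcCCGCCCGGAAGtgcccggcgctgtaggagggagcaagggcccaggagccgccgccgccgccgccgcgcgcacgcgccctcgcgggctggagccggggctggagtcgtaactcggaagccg
DCUN1D3: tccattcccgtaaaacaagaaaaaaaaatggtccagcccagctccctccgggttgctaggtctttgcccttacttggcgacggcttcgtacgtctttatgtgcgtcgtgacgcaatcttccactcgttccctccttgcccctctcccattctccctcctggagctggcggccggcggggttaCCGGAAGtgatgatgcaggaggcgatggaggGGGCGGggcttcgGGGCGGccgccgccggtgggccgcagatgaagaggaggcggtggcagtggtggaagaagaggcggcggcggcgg
KLHL12: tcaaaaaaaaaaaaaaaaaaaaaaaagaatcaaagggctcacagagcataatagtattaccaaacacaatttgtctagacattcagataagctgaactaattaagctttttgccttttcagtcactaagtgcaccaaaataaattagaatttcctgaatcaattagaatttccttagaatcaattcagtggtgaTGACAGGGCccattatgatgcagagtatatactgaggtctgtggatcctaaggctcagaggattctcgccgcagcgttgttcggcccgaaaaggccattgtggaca
KLHL11: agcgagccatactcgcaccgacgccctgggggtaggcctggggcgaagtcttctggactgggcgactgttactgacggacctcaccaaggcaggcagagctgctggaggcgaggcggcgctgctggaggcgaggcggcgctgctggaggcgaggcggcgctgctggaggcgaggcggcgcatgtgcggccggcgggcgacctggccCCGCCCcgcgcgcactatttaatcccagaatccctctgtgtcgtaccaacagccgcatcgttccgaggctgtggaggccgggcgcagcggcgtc
The motifs searched, on both strands, were the GC box with the letters GGGCGG, the CCAAT box, an ETS motif with the letters CCGGAAG, the E-box with the letters CACGTG, the cyclic AMP response element with the letters TGACGTCA, the TATA box with the letters TATAAA and the core of the antioxidant response element with the letters TGACNNNGC. In the SPOPL window the GC box and the ETS motif overlap and form 1 run of capitals. The DCUN1D3 window holds 2 GC boxes and 1 ETS motif, the KLHL11 window 1 GC box and the KLHL12 window 1 match to TGACNNNGC. The GC content was 71.3% for SPOPL, 63.3% for DCUN1D3, 70.7% for KLHL11 and 37.3% for KLHL12.

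Promoters of 52 of the 56 members were matched, and CUL7, KLHL14, KLHL31 and KLHL38 were not. The GC box was held by 32 of 52 member promoters (61.5%), against 44.6% of all 27305 promoters. The ETS letters were held by 9 (17.3%), against 10.7%, and TGACNNNGC by 11 (21.2%), against 13.6%. The CCAAT box was held by 12 (23.1%), against 35.7%, the E-box by 4 (7.69%), against 7.43%, and the TATA box by 2 (3.85%), against 12%. No member promoter held the cyclic AMP response element, which was in 1.98% of all promoters. The median GC content was 63.5% over the member windows and 58.3% over all 27305 promoters. Those promoters were not limited to the 18404 genes measured. The motif counts describe letters in a window, and neither they nor the part of GC content in them was tested.

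The members were measured from dim to bright. Mean log2 levels over all arrays lay between 4.35 and 10.80, with a median of 7.73, beside 7.54 over all probe sets tested. The median SD over the 4 negative arrays was 0.116 for members and 0.127 for all probe sets. The median difference between TRIM44 siRNA and negative siRNA was 0.00 over the 56 members and 0.01 over all 19158 probe sets. Of the members 29 lay above 0 and 27 below, and of all probe sets 10297 above and 8861 below. The differences of single members lay between -0.42 for KLHL12 and 0.65 for SPOPL.

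**Figure D1:**
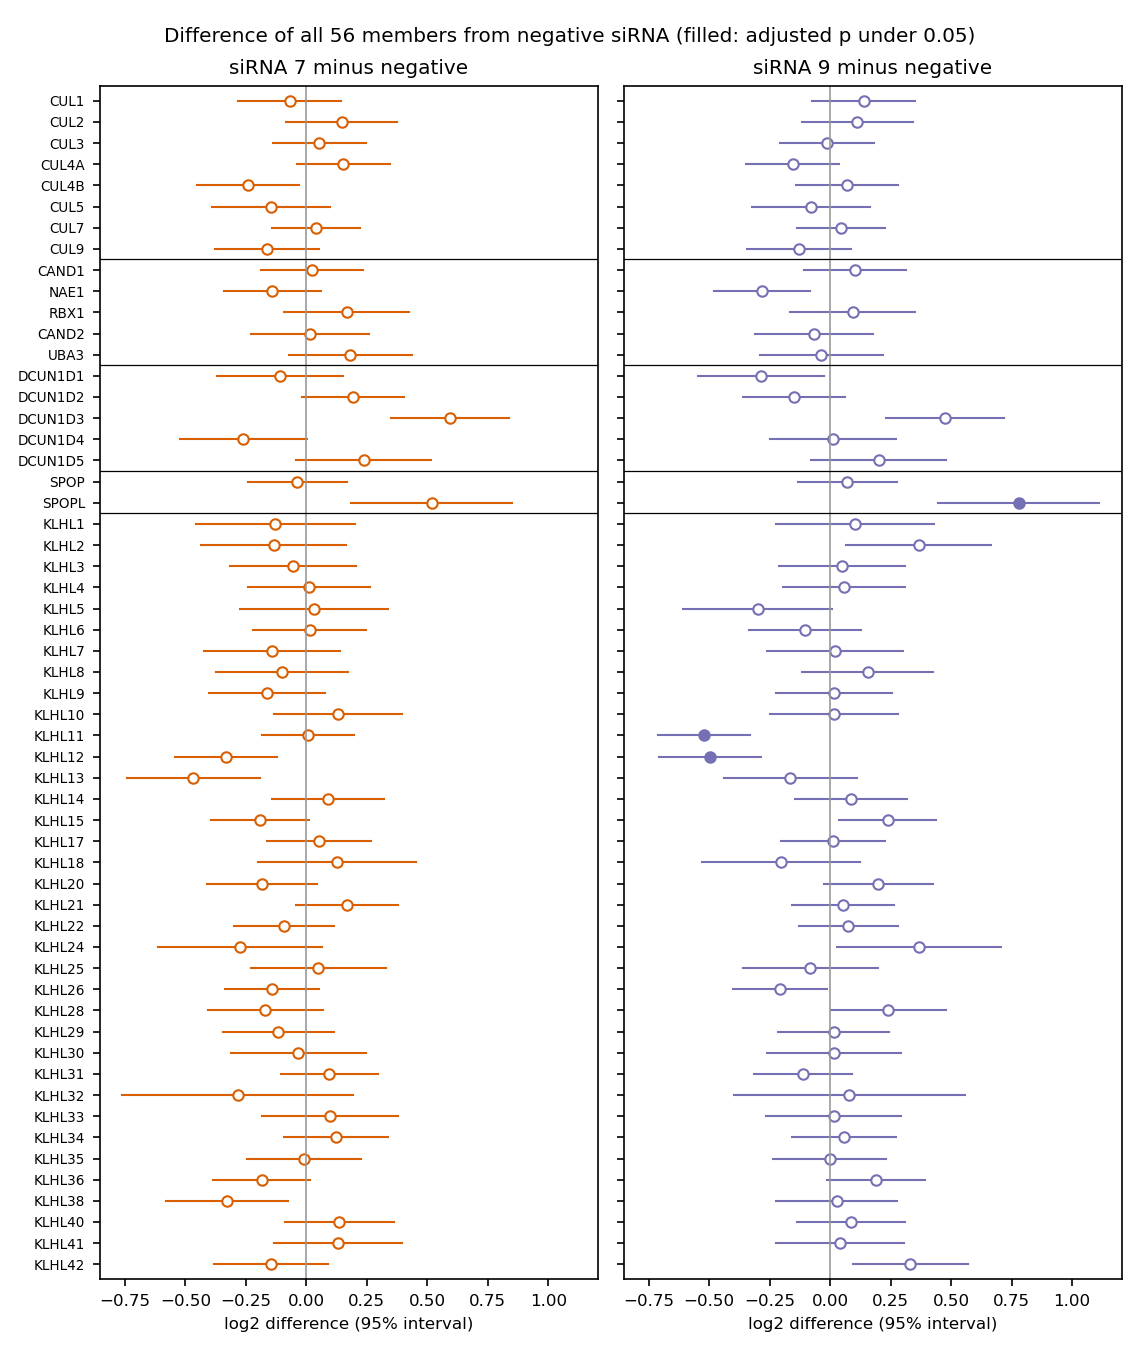
Difference in log2 level from negative siRNA for the 56 members, with siRNA 7 on the left and siRNA 9 on the right, ordered by role; points are estimates of the limma fit of 3 group means, bars their 95% intervals and filled points passed the threshold. Only SPOPL at 0.78 and KLHL11 and KLHL12 at -0.52 and -0.50, all with siRNA 9, are filled.

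With both reagents together, 0 of 56 members passed the limma threshold of an adjusted p of 0.05, against 0.00522% of all probe sets, which is TRIM44 alone. At an unadjusted p of 0.05, 6 members (10.7%) passed, against 5.43% of all probe sets. They were SPOPL and DCUN1D3, with positive differences (2.93% of all probe sets), and KLHL12, KLHL13, KLHL26 and NAE1, with negative ones (2.5%). For 5 members (8.93%) the 4 TRIM44 siRNA arrays and the 4 negative arrays did not overlap, against 2.86% of all probe sets. SPOPL and DCUN1D3 lay entirely above and KLHL12, KLHL26 and NAE1 entirely below, while 1.59% of all probe sets lay above and 1.26% below.

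With siRNA 7 alone, 0 of 56 members passed, against 0.0679% of all probe sets, and 6 members (10.7%) had an unadjusted limma p under 0.05, against 7.46%. Of these, DCUN1D3 and SPOPL were higher, where 2.81% of all probe sets were, and CUL4B, KLHL12, KLHL13 and KLHL38 lower, where 4.66% were. With siRNA 9 alone, 3 members passed (5.36%), against 0.924% of all probe sets. SPOPL rose, where 0.334% of all probe sets rose, and KLHL11 and KLHL12 fell, where 0.59% of all probe sets fell. At an unadjusted p of 0.05 it was 12 members (21.4%), against 13.6%: 7 were higher (background 8.05%), with DCUN1D3, KLHL2, KLHL15, KLHL24, KLHL28 and KLHL42 beside SPOPL, and 5 were lower (background 5.56%), with DCUN1D1, KLHL26 and NAE1 beside KLHL11 and KLHL12. The 2 reagents were compared with the same 4 negative arrays, so their differences are not independent of each other. In the direct comparison of siRNA 7 with siRNA 9, 1 member passed (1.79%), KLHL11, against 2.23% of all probe sets. It was higher with siRNA 7, as 0.82% of all probe sets were, and no member passed as lower, against 1.41%.

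**Figure D2:**
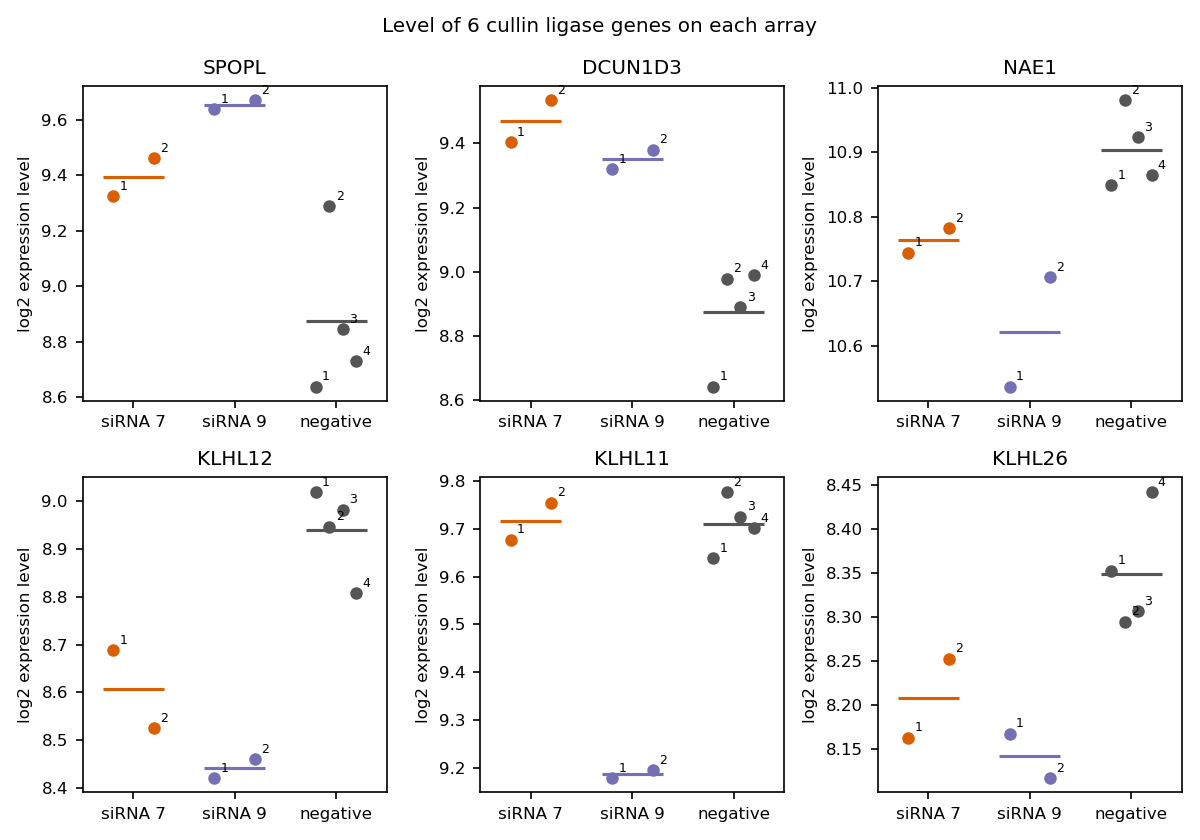
Log2 expression level of SPOPL, DCUN1D3, NAE1, KLHL12, KLHL11 and KLHL26 on every array, with siRNA 7, siRNA 9 and negative siRNA from left to right; each point is 1 array with its number and each line the group mean, and the vertical axes differ between panels and do not start at 0. SPOPL and DCUN1D3 lie higher, and NAE1, KLHL12 and KLHL26 lower, on all 4 TRIM44 siRNA arrays than on the negative arrays, while KLHL11 is lower on the siRNA 9 arrays alone.

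No cullin passed the threshold in any comparison. CUL1 holds the F-box receptors, CUL3 the BTB adaptors, and CUL4A and CUL4B the DDB1-based receptors. The median difference of the 8 cullins was 0.01 with TRIM44 siRNA, -0.01 with siRNA 7 and 0.02 with siRNA 9, and none had an unadjusted p under 0.05 with both reagents together. The main scaffold of the KLHL proteins, CUL3, averaged 10.46 ± 0.05 with TRIM44 siRNA and 10.44 ± 0.07 with negative siRNA (SD, n = 4 each), a difference of 0.02 with a 95% interval of -0.14 to 0.18. For CUL1 the means were 9.93 ± 0.13 with TRIM44 siRNA and 9.89 ± 0.11 with negative siRNA, a difference of 0.03 (interval -0.16 to 0.23). These intervals do not reach the size seen for SPOPL.

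The cullins with the smallest p were CUL9 and CUL2. CUL9, a large cytoplasmic cullin, stood at 7.13 and 7.12 with siRNA 7 and 7.29 and 7.03 with siRNA 9, against 7.34, 7.28, 7.32 and 7.20 with negative siRNA. One siRNA 9 array reached into the range of the negative arrays, and the difference of -0.15 (interval -0.32 to 0.03) did not pass (limma adjusted p = 0.964). CUL2, the scaffold of the VHL ligase, stood at 9.14 and 9.25 with siRNA 7 and 9.07 and 9.25 with siRNA 9, against 8.95, 9.21, 9.07 and 8.98 with negative siRNA. The groups overlapped, with a difference of 0.13 (interval -0.06 to 0.32, limma adjusted p = 0.997). CUL5, which uses SOCS-box receptors, averaged 8.15 ± 0.04 with TRIM44 siRNA and 8.26 ± 0.17 with negative siRNA (SD, n = 4 each), and CUL7, which pairs with FBXW8, 7.34 ± 0.01 with TRIM44 siRNA and 7.30 ± 0.03 with negative siRNA. The CUL5 difference was -0.11, and -0.03 without negative array 2.

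The paralogues CUL4A and CUL4B lay on opposite sides between the reagents. CUL4A stood at 9.96 and 10.08 with siRNA 7, against 9.69 and 9.73 with siRNA 9, and at 9.91, 9.85, 9.91 and 9.80 with negative siRNA. CUL4B stood at 8.44 and 8.56 with siRNA 7, against 8.79 and 8.83 with siRNA 9, and at 8.69, 8.85, 8.80 and 8.62 with negative siRNA. The 2 reagents overlapped for neither gene, and the negative arrays lay between them for CUL4A. The difference of siRNA 7 minus siRNA 9 was 0.31 for CUL4A (interval 0.09 to 0.53, limma adjusted p = 0.151) and -0.31 for CUL4B (interval -0.55 to -0.07, limma adjusted p = 0.188), so neither passed.

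Among the genes that attach NEDD8 and exchange adaptors, NAE1 was lower on every TRIM44 siRNA array. NAE1, the regulatory subunit of the NEDD8 activating enzyme, stood at 10.74 and 10.78 with siRNA 7 and 10.54 and 10.71 with siRNA 9, against 10.85, 10.98, 10.92 and 10.86 with negative siRNA. The lowest negative array was 0.07 above the highest TRIM44 siRNA array, and the difference was -0.21 (interval -0.39 to -0.04, limma adjusted p = 0.884). Its catalytic partner UBA3 stood at 8.87 and 9.07 with siRNA 7 and 8.74 and 8.76 with siRNA 9, against 8.63, 9.03, 8.75 and 8.74 with negative siRNA. UBA3 overlapped between the groups, with a difference of 0.07 (interval -0.15 to 0.30), and of 0.15 without negative array 2 (limma adjusted p = 0.674). By reagent the UBA3 difference was 0.18 with siRNA 7 and -0.04 with siRNA 9, and that of NAE1 was -0.14 with siRNA 7 and -0.28 with siRNA 9, none of them past the threshold.

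RBX1, the RING subunit of most cullin ligases, stood at 10.22 and 10.18 with siRNA 7 and 10.13 and 10.13 with siRNA 9, against 9.97, 10.32, 9.99 and 9.87 with negative siRNA. All 4 TRIM44 siRNA arrays lay above negative arrays 1, 3 and 4 and below negative array 2, and the difference was 0.13 (interval -0.08 to 0.34). Without negative array 2 it was 0.22 (limma adjusted p = 0.454). The exchange factor CAND1 averaged 10.51 ± 0.06 with TRIM44 siRNA and 10.45 ± 0.11 with negative siRNA, and its paralogue CAND2 6.93 ± 0.16 with TRIM44 siRNA and 6.96 ± 0.08 with negative siRNA (SD, n = 4 each). Their differences were 0.06 and -0.03.

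The DCUN1D genes encode cofactors that help the NEDD8 conjugating enzyme to reach the cullin, and DCUN1D3 was the member of this family that stood apart. DCUN1D3 is the membrane-bound form. It stood at 9.40 and 9.53 with siRNA 7 and 9.32 and 9.38 with siRNA 9, against 8.64, 8.98, 8.89 and 8.99 with negative siRNA. Every TRIM44 siRNA array lay above every negative array, with means of 9.41 ± 0.09 with TRIM44 siRNA and 8.88 ± 0.16 with negative siRNA (SD, n = 4 each). The difference was 0.53 ± 0.09 (SE, interval 0.33 to 0.74), or 1.45-fold, and did not pass after adjustment (limma adjusted p = 0.215). By reagent it was 0.59 with siRNA 7 (interval 0.35 to 0.84, limma adjusted p = 0.0856) and 0.47 with siRNA 9 (interval 0.23 to 0.72, limma adjusted p = 0.0753). The siRNA 7 value exceeded the siRNA 9 value by 0.12 (interval -0.16 to 0.40). Without negative array 2 the siRNA 9 difference of DCUN1D3 was 0.51 and passed (limma adjusted p = 0.0231). The siRNA 7 difference was 0.63 in that fit and did not pass (limma adjusted p = 0.0559). Each was the smallest limma adjusted p for its reagent among the 8 fits that left out 1 array. Over those fits the differences lay between 0.40 and 0.51 with siRNA 9 and between 0.52 and 0.66 with siRNA 7.

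The other DCUN1D genes gave smaller differences in both directions. DCUN1D5 stood at 9.84 and 10.04 with siRNA 7 and 9.74 and 10.06 with siRNA 9, against 9.63, 9.94, 9.59 and 9.65 with negative siRNA. All TRIM44 siRNA arrays lay above negative arrays 1, 3 and 4, and negative array 2 lay among them, with a difference of 0.22 (interval -0.01 to 0.44, limma adjusted p = 0.922), and of 0.30 without negative array 2 (limma adjusted p = 0.421). DCUN1D1, which is amplified in squamous carcinomas, stood at 8.80 and 9.22 with siRNA 7 and 8.90 and 8.77 with siRNA 9, against 9.14, 9.22, 9.12 and 9.01 with negative siRNA. Both siRNA 9 arrays lay below all negative arrays, while one siRNA 7 array lay below the negative arrays and the other at their upper end.

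DCUN1D2 stood at 7.25 and 7.44 with siRNA 7, against 6.99 and 7.01 with siRNA 9, and at 7.12, 7.04, 7.20 and 7.24 with negative siRNA. The negative arrays lay between the reagents, and siRNA 7 minus siRNA 9 was 0.34 (interval 0.10 to 0.59, limma adjusted p = 0.148). DCUN1D4 stood at 9.19 and 9.49 with siRNA 7 and 9.57 and 9.65 with siRNA 9, against 9.47, 9.81, 9.62 and 9.51 with negative siRNA. It overlapped between the groups.

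SPOP and its paralogue SPOPL gave different values. SPOP is the substrate receptor that is often mutated in prostate cancer, and SPOPL forms complexes with it that are less active. SPOPL stood at 9.32 and 9.46 with siRNA 7 and 9.64 and 9.67 with siRNA 9, against 8.64, 9.29, 8.85 and 8.73 with negative siRNA. Every TRIM44 siRNA array was above every negative array, although negative array 2 was only 0.04 under the lowest of them. SPOP stood at 8.81 and 8.62 with siRNA 7 and 8.85 and 8.80 with siRNA 9, against 8.67, 8.83, 8.76 and 8.76 with negative siRNA. The SPOP groups overlapped, with a difference of 0.02 (interval -0.16 to 0.19).

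With siRNA 9, SPOPL rose by 0.78 ± 0.15 (SE, interval 0.45 to 1.11, limma adjusted p = 0.0388), or 1.72-fold. With siRNA 7 the difference was 0.52 (interval 0.18 to 0.85, limma adjusted p = 0.342), and siRNA 7 minus siRNA 9 was -0.26 (interval -0.65 to 0.12, limma adjusted p = 0.538), so the reagents were not shown to differ. Over both reagents SPOPL averaged 9.52 ± 0.16 with TRIM44 siRNA and 8.88 ± 0.29 with negative siRNA (SD, n = 4 each), a difference of 0.65 ± 0.13 (SE, interval 0.36 to 0.94, limma adjusted p = 0.370). Without negative array 2 the siRNA 9 difference was 0.92 (limma adjusted p = 0.000854), and the siRNA 7 difference of 0.66 passed as well (limma adjusted p = 0.0371). Among the settings that ended the siRNA 9 call were those without negative array 1 (limma adjusted p = 0.0999), 3 (0.112) or 4 (0.0746), without siRNA 9 array 1 (0.384) or 2 (0.354), with median centring (0.0612) and with every probe set of the platform tested (0.159).

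The 36 KLHL genes ranged from near the bottom of the scale to 9.58 in mean level. Their median difference was -0.01 with TRIM44 siRNA, -0.07 with siRNA 7 and 0.03 with siRNA 9, and 17, 15 and 26 of the 36 lay above 0. Of all 19158 probe sets, 10297, 9440 and 10823 lay above 0 in the same comparisons. The dimmest were KLHL4, KLHL41 and KLHL10. KLHL4 stood at 4.53 and 4.17 with siRNA 7 and 4.49 and 4.30 with siRNA 9, against 4.35, 4.22, 4.35 and 4.43 with negative siRNA. KLHL41, which with KLHL40 is known from sarcomeres of skeletal muscle, stood at 4.72 and 4.79 with siRNA 7 and 4.77 and 4.56 with siRNA 9, against 4.50, 4.54, 4.58 and 4.90 with negative siRNA. KLHL10, known from spermatids, stood at 4.78 and 4.75 with siRNA 7 and 4.66 and 4.65 with siRNA 9, against 4.82, 4.39, 4.55 and 4.79 with negative siRNA. All of these overlapped between TRIM44 siRNA and negative siRNA.

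KLHL12 was lower on every TRIM44 siRNA array. With CUL3 it attaches ubiquitin to SEC31, which enlarges the COPII vesicles that export collagen, and it targets Dishevelled in Wnt signalling. It stood at 8.69 and 8.52 with siRNA 7 and 8.42 and 8.46 with siRNA 9, against 9.02, 8.95, 8.98 and 8.81 with negative siRNA. The highest TRIM44 siRNA array lay 0.12 below the lowest negative array. KLHL12 fell with siRNA 9 by 0.50 ± 0.10 (SE, limma adjusted p = 0.0358), to 0.708 times the level with negative siRNA. With siRNA 7 the difference was -0.33 (interval -0.54 to -0.12, limma adjusted p = 0.336), and siRNA 7 minus siRNA 9 was 0.17 (interval -0.08 to 0.41, limma adjusted p = 0.534). Over both reagents the means were 8.52 ± 0.12 with TRIM44 siRNA and 8.94 ± 0.09 with negative siRNA (SD, n = 4 each), a difference of -0.42 ± 0.09 (SE, interval -0.60 to -0.23, limma adjusted p = 0.370). The siRNA 9 value without negative array 2 was -0.50 (limma adjusted p = 0.0155), and the settings that ended the call included those without negative array 1 (0.110) or 3 (0.137), without siRNA 9 array 1 (0.437) or 2 (0.328) and with every probe set of the platform tested (0.130).

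KLHL11 was lower with siRNA 9 and at the level of the negative arrays with siRNA 7. It is known as the target of autoantibodies in a paraneoplastic encephalitis of patients with testicular tumours. It stood at 9.68 and 9.75 with siRNA 7 and 9.18 and 9.20 with siRNA 9, against 9.64, 9.78, 9.73 and 9.70 with negative siRNA. Both siRNA 9 arrays lay below all other arrays, which spanned 9.64 to 9.78. KLHL11 fell with siRNA 9 by 0.52 ± 0.09 (SE, limma adjusted p = 0.0182), to 0.696 times the level with negative siRNA. The siRNA 7 difference was 0.01 (interval -0.18 to 0.19, limma adjusted p = 0.998). Tested directly, KLHL11 was higher with siRNA 7 than with siRNA 9 by 0.53 ± 0.10 (SE, interval 0.31 to 0.75, limma adjusted p = 0.0232).

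The siRNA 9 difference of KLHL11 was -0.50 without negative array 2 (limma adjusted p = 0.0078). The settings that ended its call included those without negative array 3 (0.0778), without siRNA 9 array 1 (0.297) or 2 (0.258) and with every probe set tested (0.0821). The difference between the reagents was lost when negative array 3 (0.0528), the first (0.0691) or second (0.146) siRNA 7 array, or the first (0.211) or second (0.169) siRNA 9 array was left out, and with every probe set tested (0.0852).

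**Figure D3:**
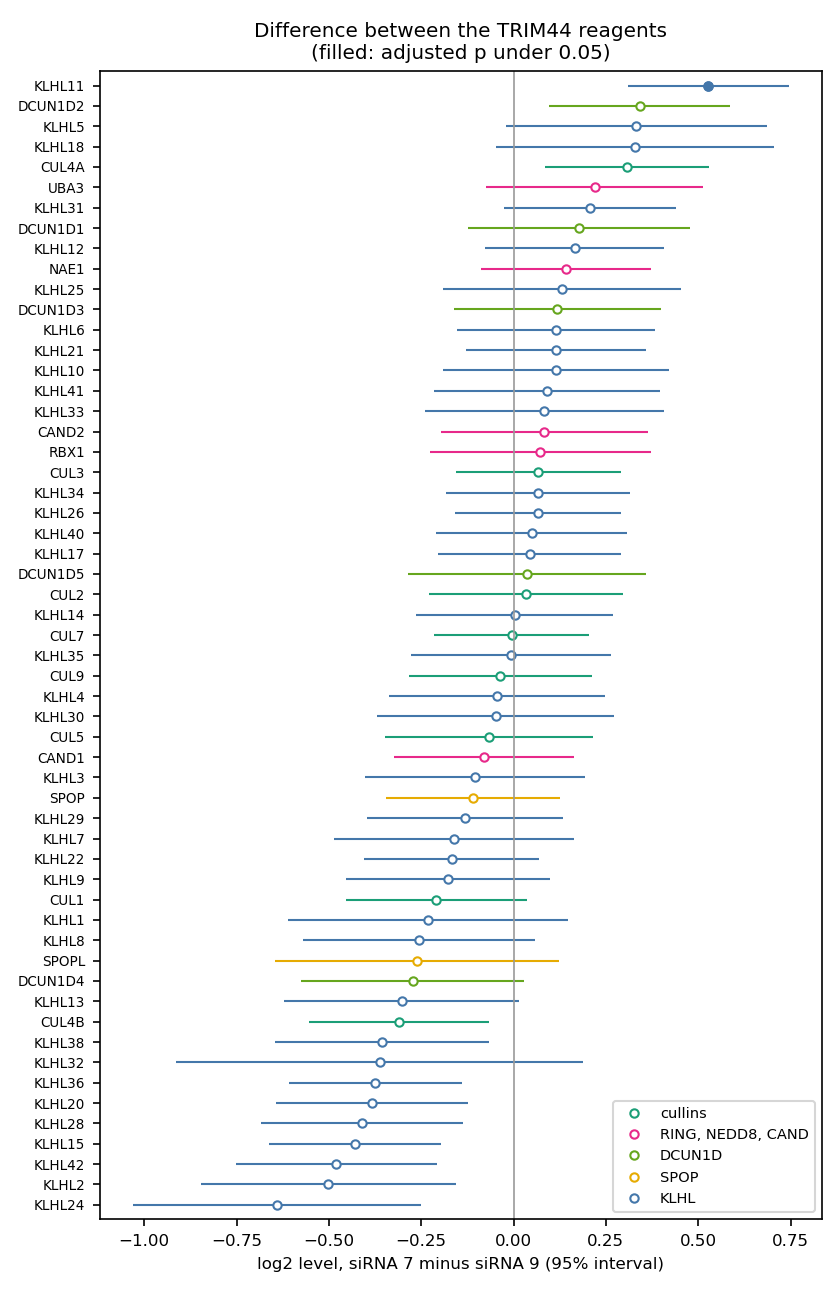
Log2 level with siRNA 7 minus siRNA 9 for the 56 members, ordered by size and coloured by role, with 95% intervals of the limma fit; the filled point passed the threshold. KLHL11 at 0.53 is the filled point at the top, and KLHL24 at -0.64 is at the bottom.

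Several other KLHL genes were higher with siRNA 9 than with siRNA 7 without passing. At an unadjusted p of 0.05, 12 members (21.4%) differed between the reagents, against 15.7% of all probe sets. Of these, 9 (16.1%) were lower with siRNA 7, against 9.58% of all probe sets: KLHL2, KLHL15, KLHL20, KLHL24, KLHL28, KLHL36, KLHL38, KLHL42 and CUL4B. Those higher with siRNA 7 were KLHL11, CUL4A and DCUN1D2, against 6.15% of all probe sets. None but KLHL11 passed after adjustment.

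KLHL24, in which mutations cause skin fragility through loss of keratin, stood at 8.23 and 8.03 with siRNA 7, against 8.67 and 8.87 with siRNA 9, and at 8.32, 8.76, 8.45 and 8.09 with negative siRNA. The reagents did not overlap, and the negative arrays spanned the gap between them. The difference of siRNA 7 minus siRNA 9 was -0.64 (interval -1.03 to -0.25, limma adjusted p = 0.0906). KLHL2, an actin-binding adaptor, stood at 7.24 and 7.28 with siRNA 7, against 7.79 and 7.73 with siRNA 9, and at 7.17, 7.67, 7.53 and 7.20 with negative siRNA, with siRNA 7 minus siRNA 9 at -0.50 (limma adjusted p = 0.134). Negative array 2 lay near the siRNA 9 arrays for both genes. The siRNA 9 difference from negative siRNA was 0.37 for each of them (limma adjusted p = 0.320 for KLHL24 and 0.254 for KLHL2). Without negative array 2 it was 0.48 for KLHL24 (limma adjusted p = 0.0399) and 0.46 for KLHL2 (limma adjusted p = 0.0392). Their siRNA 7 minus siRNA 9 differences passed in that fit as well (limma adjusted p = 0.0178 and 0.0403). The values 0.48 and 0.46 were the largest siRNA 9 differences of the fits that left out 1 array. The smallest were 0.26 for KLHL24 and 0.29 for KLHL2. With negative array 2 left out, 6 members passed with siRNA 9: DCUN1D3, KLHL2, KLHL11, KLHL12, KLHL24 and SPOPL. The share of all probe sets that passed in that fit is not given here, so the count is not read as a result about the members.

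KLHL42, which directs the microtubule-severing enzyme katanin to CUL3, stood at 8.48 and 8.68 with siRNA 7, against 9.15 and 8.97 with siRNA 9, and at 8.68, 8.65, 8.68 and 8.91 with negative siRNA. Both siRNA 9 arrays lay above all others, and siRNA 7 minus siRNA 9 was -0.48 (interval -0.75 to -0.21, limma adjusted p = 0.0711). KLHL36 stood at 9.44 and 9.35 with siRNA 7, against 9.76 and 9.78 with siRNA 9, and at 9.59, 9.69, 9.58 and 9.46 with negative siRNA. All negative arrays lay between the reagents, and the difference was -0.37 (limma adjusted p = 0.0984). KLHL15, an adaptor for a phosphatase subunit, stood at 7.57 and 7.71 with siRNA 7, against 8.05 and 8.09 with siRNA 9, and at 7.76, 7.83, 7.81 and 7.94 with negative siRNA. Here too the negative arrays lay between the reagents, with a difference of -0.43 (limma adjusted p = 0.0614). KLHL28 and KLHL20 gave -0.41 (limma adjusted p = 0.122) and -0.38 (limma adjusted p = 0.128).

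With siRNA 7 the lowest differences were those of KLHL13, KLHL12 and KLHL38. KLHL13, which with KLHL9 directs CUL3 to Aurora B in mitosis, stood at 7.26 and 7.24 with siRNA 7 and 7.47 and 7.63 with siRNA 9, against 7.44, 7.92, 7.82 and 7.68 with negative siRNA. Both siRNA 7 arrays lay below all others, with a siRNA 7 difference of -0.47 (interval -0.74 to -0.19, limma adjusted p = 0.282). The KLHL13 difference over both reagents was -0.32, and -0.25 without negative array 2. Its partner KLHL9 stood at 5.20 and 5.14 with siRNA 7 and 5.15 and 5.53 with siRNA 9, against 5.31, 5.39, 5.27 and 5.34 with negative siRNA. One siRNA 9 array of KLHL9 was above every negative array and the other 3 TRIM44 siRNA arrays were below. KLHL38 stood at 5.25 and 5.23 with siRNA 7 and 5.50 and 5.69 with siRNA 9, against 5.45, 5.56, 5.45 and 5.80 with negative siRNA. The siRNA 7 arrays were again the lowest, with a siRNA 7 difference of -0.33 (limma adjusted p = 0.477).

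KLHL26 lay lower on all TRIM44 siRNA arrays by a small amount. It stood at 8.16 and 8.25 with siRNA 7 and 8.17 and 8.12 with siRNA 9, against 8.35, 8.29, 8.31 and 8.44 with negative siRNA, and the difference was -0.17 (interval -0.34 to -0.01, limma adjusted p = 0.903). KLHL5 stood at 7.05 and 6.97 with siRNA 7, against 6.72 and 6.64 with siRNA 9, and at 6.69, 7.28, 7.08 and 6.86 with negative siRNA. The siRNA 7 arrays lay inside the range of the negative arrays and the siRNA 9 arrays at or under its lower end, with siRNA 7 minus siRNA 9 at 0.33 (interval -0.02 to 0.69, limma adjusted p = 0.351). Over both reagents the KLHL5 difference from negative siRNA was -0.13, and -0.03 without negative array 2.

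**Figure D4:**
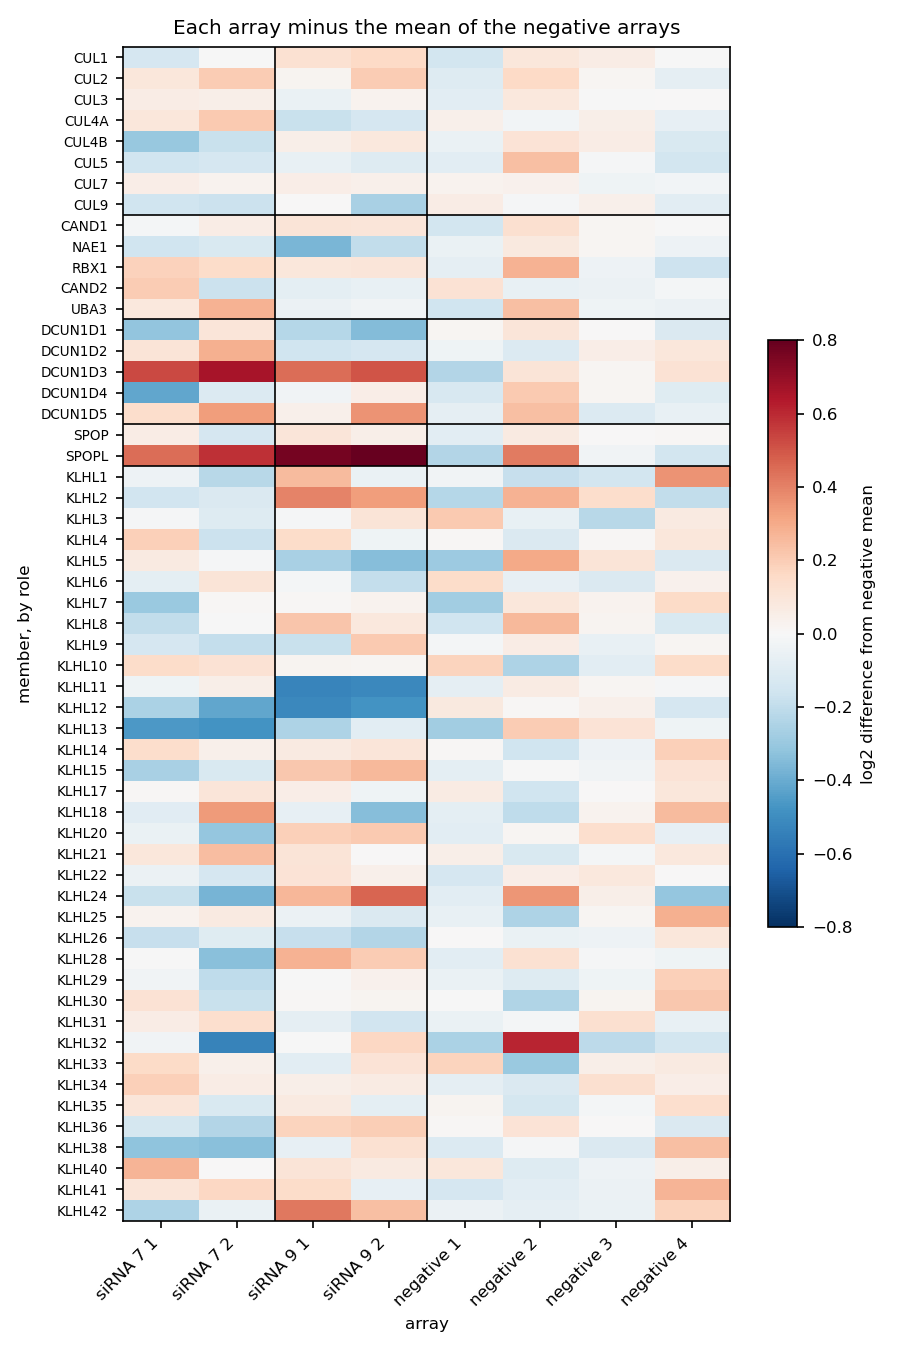
Log2 level of each of the 56 members on each array minus its mean over the 4 negative arrays, with siRNA 7, siRNA 9 and negative arrays from left to right and members grouped by role; the colour scale runs from -0.8 to 0.8. SPOPL and DCUN1D3 are above 0 and KLHL12 below 0 on all 4 TRIM44 siRNA arrays, and negative array 2 is above 0 in many members.

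The partners and targets of these ligases were read from 9 lists, of which 216 of 235 genes were measured, by 227 probe sets. With both reagents together 0 of these 227 passed in limma, against 0.00522% of all probe sets. With siRNA 7, 1 passed (0.441%) and was lower, against 0.0626%, and with siRNA 9, 1 passed (0.441%) and was lower, against 0.59%. Between the reagents 7 passed (3.08%), 2 higher and 5 lower with siRNA 7, against 2.23% of all probe sets.

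The median difference with TRIM44 siRNA was -0.04 for the 10 subunits of the COP9 signalosome, which removes NEDD8 from cullins, and -0.01 for 9 other neddylation genes. It was 0.01 for 32 other BTB adaptors of CUL3, -0.03 for 46 CUL1 adaptors and F-box receptors, 0.04 for 40 CUL2 and CUL5 receptors and 0.03 for 30 CUL4 receptors. It was -0.12 for 4 conjugating enzymes used by cullins, 0.00 for 25 transcripts of known substrates of CUL3 adaptors and 0.01 for 20 target genes of NRF2, the transcription factor that KEAP1 and CUL3 keep low. The median over all probe sets was 0.01, so the conjugating enzymes lay farthest from it, at -0.03 with siRNA 7 and -0.20 with siRNA 9, and no gene of that list passed the threshold. Only 4 of the 8 listed conjugating enzymes were measured, so that median rests on few genes. UBE2M and UBE2F, listed with the other neddylation genes, were not measured.

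FBXO28, an F-box receptor of CUL1, fell with siRNA 7. It stood at 8.86 and 8.81 with siRNA 7 and 9.25 and 9.35 with siRNA 9, against 9.32, 9.58, 9.45 and 9.49 with negative siRNA, and its siRNA 7 difference of -0.63 only just passed (limma adjusted p = 0.04998). FBXL20, another F-box receptor, fell with siRNA 9. It stood at 8.64 and 8.31 with siRNA 7 and 7.97 and 7.92 with siRNA 9, against 8.92, 8.67, 9.01 and 8.41 with negative siRNA, and its siRNA 9 difference was -0.81 (limma adjusted p = 0.0357). Both siRNA 9 arrays of FBXL20 lay below all other arrays. The difference of FBXO28 with siRNA 9 was -0.16, and that of FBXL20 with siRNA 7 was -0.27. Neither gene passed in the direct comparison of the reagents (limma adjusted p = 0.0535 for FBXO28 and 0.156 for FBXL20).

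Higher with siRNA 7 than with siRNA 9 were CCNF (0.58, limma adjusted p = 0.0477), an F-box protein of the cell cycle, and PLK1 (0.64, limma adjusted p = 0.0235), a mitotic kinase that KLHL22 brings to CUL3. PLK1 stood at 12.17 and 12.19 with siRNA 7, against 11.57 and 11.51 with siRNA 9, and at 11.97, 11.70, 11.91 and 12.05 with negative siRNA. Lower with siRNA 7 were APPBP2 and PCMTD1, receptors of CUL2 and CUL5, at -1.11 (limma adjusted p = 0.0104) and -1.14 (limma adjusted p = 0.0187). APPBP2 stood at 7.86 and 8.12 with siRNA 7, against 9.09 and 9.11 with siRNA 9, and at 8.44, 8.99, 8.56 and 8.55 with negative siRNA. The negative arrays lay between the reagents for APPBP2. FBXO45 (-0.62, limma adjusted p = 0.0269), BRWD3 (-0.79, limma adjusted p = 0.0317) and SOCS5 (-0.48, limma adjusted p = 0.0472) were lower with siRNA 7 as well.

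**Figure D5:**
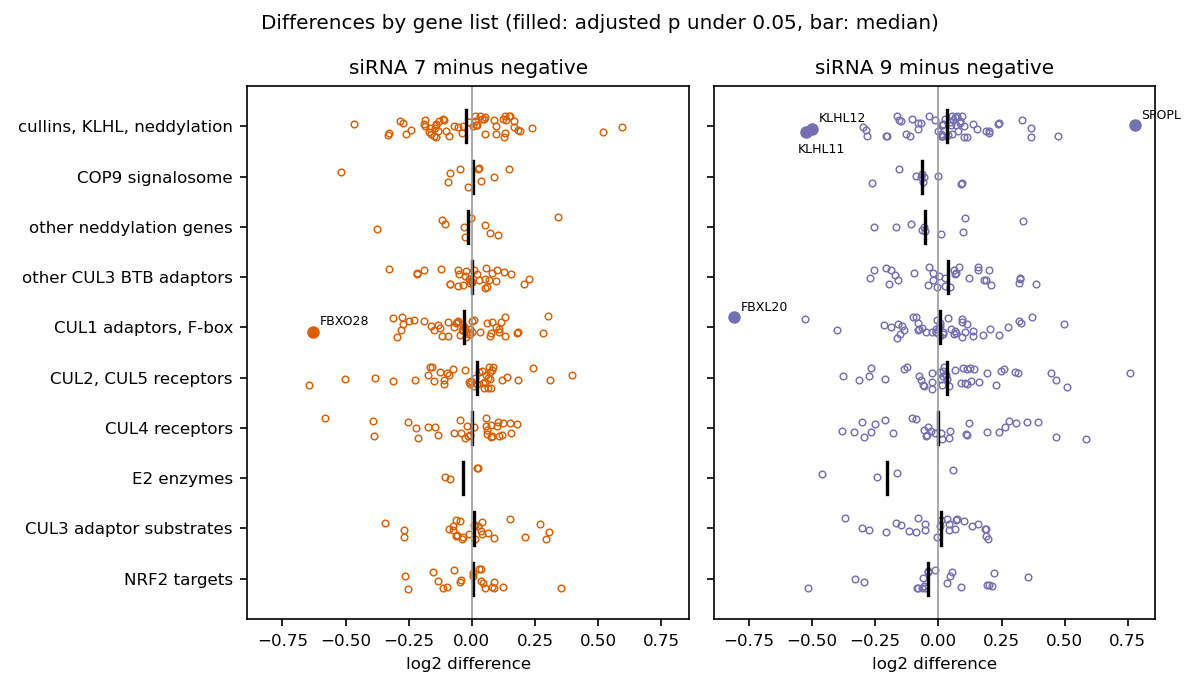
Log2 difference from negative siRNA with siRNA 7 (left) and siRNA 9 (right) for the members and the 9 lists; each point is 1 probe set, filled and named where it passed the threshold, and each bar is the median of its list. The medians lie near 0, at -0.20 for the 4 conjugating enzymes with siRNA 9, and the filled points are FBXO28 with siRNA 7 and SPOPL, KLHL11, KLHL12 and FBXL20 with siRNA 9.

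For the lists without a gene past the threshold, the genes with the smallest p in the comparison of TRIM44 siRNA with negative siRNA are given here. COPS8, a signalosome subunit, stood at 7.26 and 7.47 with siRNA 7 and 7.75 and 7.90 with siRNA 9, against 7.87, 7.90, 7.92 and 7.83 with negative siRNA, and both siRNA 7 arrays were the lowest (siRNA 7 difference -0.52, limma adjusted p = 0.0856). GPS1, another signalosome subunit, gave -0.11. The ligase ARIH1, which works with neddylated CUL1 complexes, gave 0.20, and SENP8, the protease that matures NEDD8, gave -0.22. The CUL3 adaptor KBTBD6 gave 0.28 and lay above all negative arrays on all 4 TRIM44 siRNA arrays, and BTBD2 gave -0.24. CDC34 and UBE2D4, ubiquitin-conjugating enzymes, gave -0.28 and -0.16. Of the NRF2 target genes, NQO1 gave -0.18, at -0.07 with siRNA 7 and -0.29 with siRNA 9. It lay below all negative arrays, though siRNA 7 array 1 at 12.244 was barely under negative array 4 at 12.247. The cystine transporter SLC7A11, also on the NRF2 list, gave -0.39 with overlapping groups. Of the 21 probe sets of that list, 12 lay above 0 with TRIM44 siRNA and 9 below.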

How the data were processed

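Transcript levels came from 8 Affymetrix Human Gene 1.0 ST arrays. The authors deposited log2 levels for 32321 probe sets on each array, and per the submitters' processing notes they used limma. The sorted values of any pair of arrays lie within 0.180 of each other; how the authors corrected background, normalized or filtered is not given in the sources used here. The number of arrays limits the precision, and signal over background is not given. The protocol text names TRIM44 siRNA also for samples labelled negative siRNA; the sample labels were used.

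Gene names came from the platform annotation, with gene IDs looked up in RefSeq (GRCh38.p14), where 19128 were found and 0 symbols differed. Tests ran over the 19158 probe sets with exactly 1 symbol, at any level; 1388 with several symbols and 11775 with none were left out. Moderated tests of limma (lmFit, eBayes) were 2-sided, adjusted by Benjamini-Hochberg over all 19158, at a threshold of 0.05. A 2-group fit set TRIM44 siRNA against negative siRNA, and a fit of 3 group means set the reagents against negative siRNA and against each other. Replicate numbers shared by the groups were used as names only. The results were recomputed after quantile normalization or median centring, over the upper 50% or all of the probe sets, with a trended and robust prior, array weights or the replicate block, with other groupings of the arrays in the fit, and with each array left out.

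The members and the gene lists were chosen with earlier results of these data known. Values on every array are given for members past the threshold or without overlap, those of smallest p in each role, the brightest and dimmest KLHL genes and the 3 largest differences each way per reagent and between reagents. Listed genes are named if past the threshold, or else up to 2 per list by smallest p. KLHL9 and UBA3 were added as partners of members named by that rule. R 4.3.3, limma 3.58.1 and statmod 1.5.0 were used.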

Additional observations from a re-analysis of the deposited data

Results flagged for a closer look

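KLHL11 differed between the reagents, at 0.53 on the log2 scale for siRNA 7 minus siRNA 9 (limma adjusted p = 0.0232), with siRNA 9 lower. In 6 of 112 sets of 4 arrays (1 per member and group), 1 array lay far from the other 3 by Dixon's gap, and chance gives about 1 in 20. Among the TRIM44 siRNA arrays these were KLHL34, highest at 7.50 on siRNA 7 array 1 (next 7.37), KLHL7, lowest at 7.22 on the same array (next 7.52), and KLHL9, highest at 5.53 on siRNA 9 array 2 (next 5.20). Among the negative arrays, KLHL32 was highest at 7.38 (next 6.63) and DCUN1D5 at 9.94 (next 9.65) on array 2, and KLHL42 at 8.91 (next 8.68) on array 4. The part of single arrays in these values was not tested.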

How the results depend on the processing

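Members past the threshold were recounted under each alternative. The share of all probe sets past the threshold under each setting is not given here, so these counts are not read as results about the members. For TRIM44 siRNA against negative siRNA the count was 0, and 3 with array weights (DCUN1D3, KLHL12 and SPOPL, limma adjusted p = 0.0281 each). It was 0 in every fit that left out 1 array. For siRNA 7 the count was 0, and 1 (DCUN1D3) for the upper 50% of probe sets by level, the trended and robust prior and array weights (limma adjusted p = 0.0361, 0.0214 and 0.0296); it was 0 to 1 when 1 array was left out. For siRNA 9 the count was 3. It was 2 with median centring, 4 for the upper 50% of probe sets and for the trended prior, 7 with array weights, 0 with all probe sets tested and 0 to 6 when 1 array was left out. Without negative array 2 it was 6, and without negative array 3 or either siRNA 9 array it was 0. With the replicate block the siRNA 9 count was 0, with SPOPL at 0.69, KLHL12 at -0.54 and KLHL11 at -0.52 (limma adjusted p = 0.139, 0.0992 and 0.101). Deviations from the group mean correlated at 0.02 to 0.31 between samples of the same number, all of them positive. With 2 arrays per reagent the deviations of a reagent mirror each other, so this cannot tell whether the numbers pair samples. The main fits use the numbers as names only. Between the reagents the count was 1, and 4 for the upper 50%, 2 with the trended prior, 5 with array weights, 3 with only the arrays compared, 0 with all probe sets, 1 with the replicate block and 0 to 6 when 1 array was left out. No difference past the threshold changed sign. The cause of these changes was not tested; the settings with the upper 50% and with all probe sets also alter how many probe sets the p-values are adjusted over. Where 1 array of a reagent was left, its spread was taken to be that of the other groups. With 2 arrays per reagent and no value for background, small differences and dim members cannot be resolved.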
